A study of Mus musculus with 6 samples.

Results

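The genes described are Scube1, Scube2, Scube3, Disp1 and Hhat, which act when a cell makes and releases a Hedgehog ligand. They were chosen by symbol, all 5 were found among the 24413 gene rows of the table, and all 5 passed the filter on low values that left 12550 genes for testing. Transcripts were measured by RNA-seq in W-EGFP cells, interstitial cells from the testis of FLE-EGFP mice at E16.5 of gestation. FLE-EGFP mice carry a green fluorescent protein under a fetal Leydig enhancer of Nr5a1, and cells of both groups carry this transgene. One group received SAG at 0.5 µM over 1 hour, the other its solvent DMSO alone, and each group has 3 libraries of 10000 cells each. SAG is an agonist of Smoothened, the protein that passes the Hedgehog signal into the cell. The sources used here do not state the strain, the number of animals behind a sample or the culture before treatment, and column names of both groups hold the unexplained element siCnt.

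Hedgehog ligands are lipid-modified proteins that stick to the membrane of the cell that makes them. Hhat, an acyltransferase of the endoplasmic reticulum, adds palmitate to the ligand, which also carries cholesterol. Disp1, a membrane transporter with a sterol-sensing domain, lifts the finished ligand out of the membrane by its cholesterol. Secreted proteins with CUB and EGF-like domains, encoded by the Scube genes, take it up from Disp1 and carry it in soluble form to co-receptors such as Gas1, Cdon and Boc and on to the receptor Ptch1. In the fetal testis the ligand Dhh comes mainly from Sertoli cells and is received by interstitial cells, which are known for their need of it to form fetal Leydig cells.

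The stretches before the start sites of Scube2, the gene with the largest difference, of its paralog Scube1, and of Disp1, the gene that differed in the opposite direction, are shown because these 3 genes carry the results. They are the 250 bases upstream of the start site in RefSeq on GRCm38.p6, on the strand of the gene, at chr7:109865680-109865929 (minus strand) for Scube2, chr15:83725040-83725289 (minus strand) for Scube1 and chr1:183221530-183221779 (minus strand) for the outer of the 2 listed start sites of Disp1. Capitals mark GC boxes, the letters GGGCGG or, on the other strand, CCGCCC, a motif chosen after the data had been seen.
Scube2: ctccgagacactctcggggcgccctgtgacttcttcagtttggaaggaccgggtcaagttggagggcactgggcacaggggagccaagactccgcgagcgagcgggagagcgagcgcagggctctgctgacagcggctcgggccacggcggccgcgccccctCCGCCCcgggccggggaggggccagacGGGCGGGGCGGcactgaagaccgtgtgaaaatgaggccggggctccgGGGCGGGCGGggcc
Scube1: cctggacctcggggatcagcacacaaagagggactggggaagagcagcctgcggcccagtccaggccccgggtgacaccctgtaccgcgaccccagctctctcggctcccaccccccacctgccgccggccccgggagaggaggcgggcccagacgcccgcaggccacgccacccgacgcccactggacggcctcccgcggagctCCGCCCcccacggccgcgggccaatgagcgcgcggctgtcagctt
Disp1: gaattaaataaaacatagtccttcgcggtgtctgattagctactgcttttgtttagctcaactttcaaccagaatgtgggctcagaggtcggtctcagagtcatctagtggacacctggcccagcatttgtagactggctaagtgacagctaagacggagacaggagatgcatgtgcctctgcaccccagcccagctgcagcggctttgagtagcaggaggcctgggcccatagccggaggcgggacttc
With overlapping matches counted and the first 50 transcribed bases added, the Scube2 window held 5 GC boxes, the Scube1 window 1 and the Disp1 window 0. The windows of Scube3 and Hhat held 0 and 1. Of 32851 promoter windows of 300 bases in the table, 35.7% held at least 1. The G and C content was 75.3% for Scube2, 75% for Scube1 and 58.7% for Disp1, against a median of 52.7% over all windows. The Gli site GACCACCCA, searched on both strands, had no match in the windows of the 5 genes, and its shorter core CCACCCA had none either. The windows of the Hedgehog pathway genes Ptch1 and Hhip, searched alike, held neither. Over all promoters 0.253% held the site and 9.30% held the core. No match says only that these letters are not in these windows.

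The values are a signal on the scale of CPM (a gene's reads relative to all counted reads of its library) with a further scaling per library inside, as the authors made it. Whole reads could be recovered from it: 18486396 to 25491259 per DMSO library and 7694479 to 8804335 per SAG library, so that 1 read is worth a signal of 0.0414 to 0.0564 in DMSO and of 0.106 to 0.128 with SAG. SAG replicate 3 stands apart from SAG replicates 1 and 2 on the second principal component (20.8% of the variance), and 1.67% of its reads came from Rn45s, a ribosomal RNA gene, where no other library exceeded 0.360%. All 7 markers of the labelled interstitial cells were detected. Their summed signal was 495 to 516 in DMSO and 1020 to 1195 with SAG. All 7 were tested and 5 were called higher, against 12.9% of all genes tested. Smooth muscle and peritubular myoid markers were abundant too, led by Acta2. Their sum was 14436 to 15170 in DMSO and 8643 to 10095 with SAG. Of the 5 listed 4 were tested, and all 4 were called lower, against 16.6% of all genes tested. Germ cell, erythroid and macrophage markers were each at a sum of at most 3.30 in any library, with Pou5f1, Dppa3 and Hbb-bt at 0 throughout. In such bulk samples, fewer cells of a type and less RNA per cell cannot be told apart, and the part of these markers in the results below was not tested.

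Among the 5 genes SAG against DMSO gave 1 call in each direction: Scube2 rose and Disp1 fell, while Scube1, Scube3 and Hhat did not pass the test (limma on log2(signal + 1), Benjamini-Hochberg adjusted p under 0.05 over all genes tested). Of all genes tested 12.9% were called higher and 16.6% lower, 29.6% in all, so 2 calls of 5 say little about the genes as a group. The groups did not overlap for the same 2 genes, 1 in each direction, against 48.0% of all genes tested, 21.2% higher and 26.8% lower. The median log2 fold change of the 5 was -0.12, beside -0.03 over all genes tested. The plot of signals by library shows each value.

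**Figure D1:**
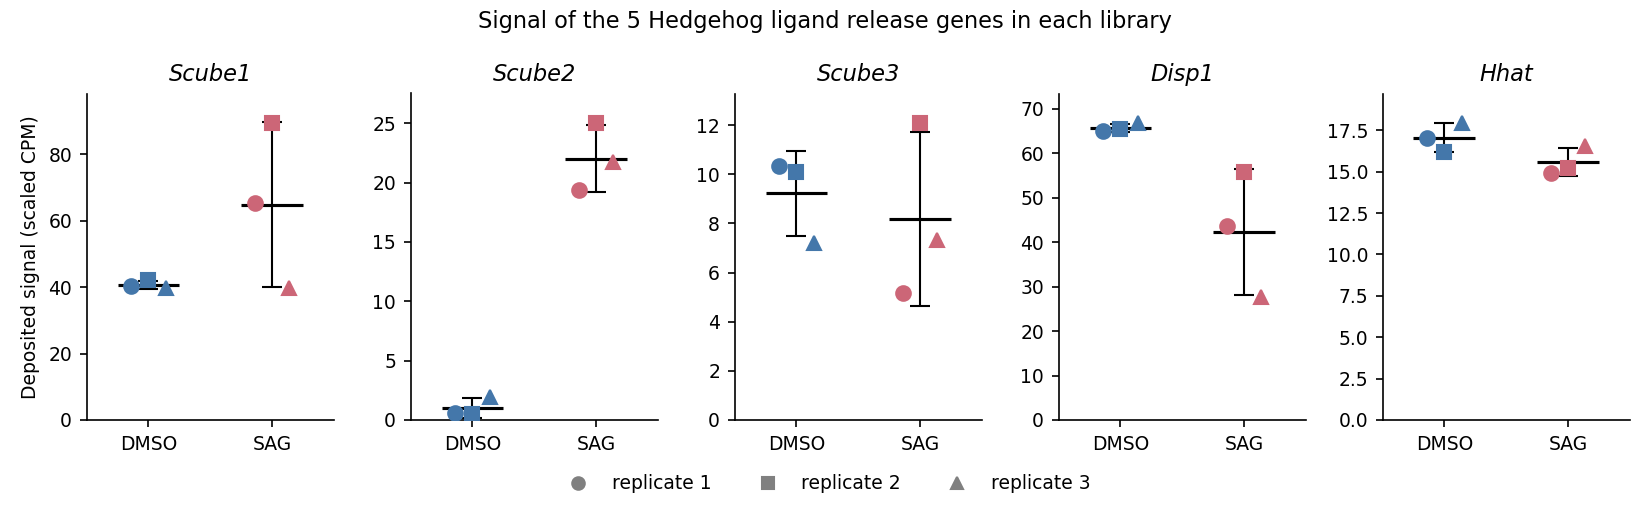
Signal (scaled CPM, y axis from 0) of Scube1, Scube2, Scube3, Disp1 and Hhat in the 3 DMSO and 3 SAG libraries; each symbol is 1 library, lines are means and bars are SD. Scube2 lies between 19.3 and 25 with SAG and at most at 1.97 in DMSO, and SAG replicate 3 (triangle) has the lowest SAG value of Scube1 and of Disp1.

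The Scube genes come first as the carriers of released ligand. Scube2 (chr7:109798676-109865679, minus strand, GRCm38 with GENCODE M21) has 4153 bases of annotated exon. Its signal was 0.580, 0.508 and 1.97 in DMSO replicates 1 to 3 and 19.3, 25 and 21.7 in SAG replicates 1 to 3. Every SAG library stood far above every DMSO library, and the SAG libraries differed little among themselves. The mean went from 1.02 ± 0.826 to 22.0 ± 2.85 (SD, n = 3), 21.6-fold (log2 fold change 3.58, SE 0.27; limma, Benjamini-Hochberg adjusted p = 3.52e-05), which is place 8 from the top by log2 fold change among the genes tested.

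The DMSO level of Scube2 rested on few reads. It had 14, 11 and 35 reads in DMSO replicates 1 to 3 and 176, 236 and 169 in the SAG libraries, which were sequenced less deeply. The exact Poisson 95% interval of the signal, for counting error only, was 0.317 to 0.973 in DMSO replicate 1, 0.254 to 0.910 in DMSO replicate 2 and 1.37 to 2.75 in DMSO replicate 3. DMSO replicate 3 therefore lay above the other DMSO libraries by more than counting error. The fold moved with it: without DMSO replicate 3 Scube2 was 40.5-fold higher with SAG, and without any other single library 17.2-fold to 22.9-fold. It was called with each library left out in turn (limma, Benjamini-Hochberg adjusted p at most 6.86e-04), and without SAG replicate 3 the fold was 21.7.

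Scube1 was the most abundant of the 3 Scube genes in DMSO. Its locus is chr15:83604999-83725021, minus strand. The signal in DMSO replicates 1 to 3 was 40.3, 42.0 and 39.6, and with SAG it was 65.4, 89.3 and 39.7. SAG replicates 1 and 2 were above every DMSO library, and SAG replicate 3 was within the DMSO range. With all libraries the means were 40.6 ± 1.22 and 64.8 ± 24.8, and the difference did not pass (log2 fold change 0.59, 95% interval 0.05 to 1.12; limma, Benjamini-Hochberg adjusted p = 0.0924). Without SAG replicate 3 it did, at 1.90-fold (log2 fold change 0.90; limma, Benjamini-Hochberg adjusted p = 2.13e-07). In that setting 19.7% of all genes tested were called higher and 27.0% lower, more than with all libraries. With all libraries, Scube1 also passed with edgeR (0.0460) and DESeq2 (0.0147) on the recovered reads. The call thus depended on the model as well as on SAG replicate 3. That library also had the highest sum of fetal Leydig markers, at 116. The other SAG libraries had 19.0 and 23.0, and DMSO at most 33.3. The sum of 116 came from Star (50.7), Cyp11a1 (33.9) and Hsd3b1 (30.8), while the listed Cyp17a1 was at 0 and Insl3 at 0.257. The sum of the 2 adrenal genes listed was also highest there (58.3, against 5.93 and 2.97 and at most 2.08 in DMSO). The part of these genes in the Scube1 value was not tested.

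Scube3 (chr17:28142141-28174854, plus strand) showed no detectable difference. Its signal was 10.4, 10.1 and 7.22 in DMSO and 5.16, 12.1 and 7.32 with SAG, and the groups overlap. The log2 fold change was -0.21 with a 95% interval of -0.81 to 0.39 (limma, Benjamini-Hochberg adjusted p = 0.588), which leaves room for a change of either sign. By signal, SAG replicates 1 and 2 were the lowest and the highest of the 6 libraries, on 47 and 114 reads. Leaving out SAG replicate 1 turned the sign (0.045).

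Divided by exon length, the 3 paralogs can be set against each other. In DMSO the mean signal per kb of exon was 4.13 ± 0.124 for Scube1, 1.04 ± 0.196 for Scube3 and 0.246 ± 0.199 for Scube2, and these did not overlap between genes. With SAG it was 6.59 ± 2.52 for Scube1 and 5.30 ± 0.685 for Scube2, whose ranges overlap, and 0.926 ± 0.400 for Scube3. In SAG replicate 3 Scube2, at 5.23 per kb, was above Scube1, at 4.04, and in the other 5 libraries it was below. That order depends on the length used: with no division Scube1 was above in SAG replicate 3, at 39.7 against 21.7. Annotated exons come to 9829 bases for Scube1 and 4153 for Scube2, and their longest transcripts to 5840 and 3571.

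The make-up of the Scube signal differed between the groups in each library. Scube2 held 2.58%, 2.21% and 8.93% of the summed Scube signal per kb in DMSO replicates 1 to 3 and 39.2%, 36.5% and 51.8% in SAG replicates 1 to 3. The share of Scube1 was 76.2% ± 0.832 in DMSO and 50.4% ± 8.98 with SAG, and that of Scube3 19.2% ± 3.37 and 7.13% ± 1.93. None of these 3 shares overlapped between the groups. The shares add up to the whole in each library, so they are not independent results: the mean level of Scube1 was higher with SAG, and the levels of Scube3 overlapped. The exact two-sided permutation p was 0.1 for each, also after Benjamini-Hochberg adjustment over the 3, the smallest that 3 against 3 libraries can give. The sum itself went from 5.42 ± 0.107 to 12.8 ± 3.29 per kb, with 11.9, 16.47 and 10.1 in SAG replicates 1 to 3 (exact two-sided permutation p = 0.1). The share of Scube2 rose by 37.9 percentage points on this scale, by 31.3 with the longest transcript as length and by 22.2 with no division by length, so the size of the share depends on the length used. No 50-base window of the annotated transcripts of one Scube gene occurs in those of another, so a read of that length from one has no exact match in another.

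**Figure D2:**
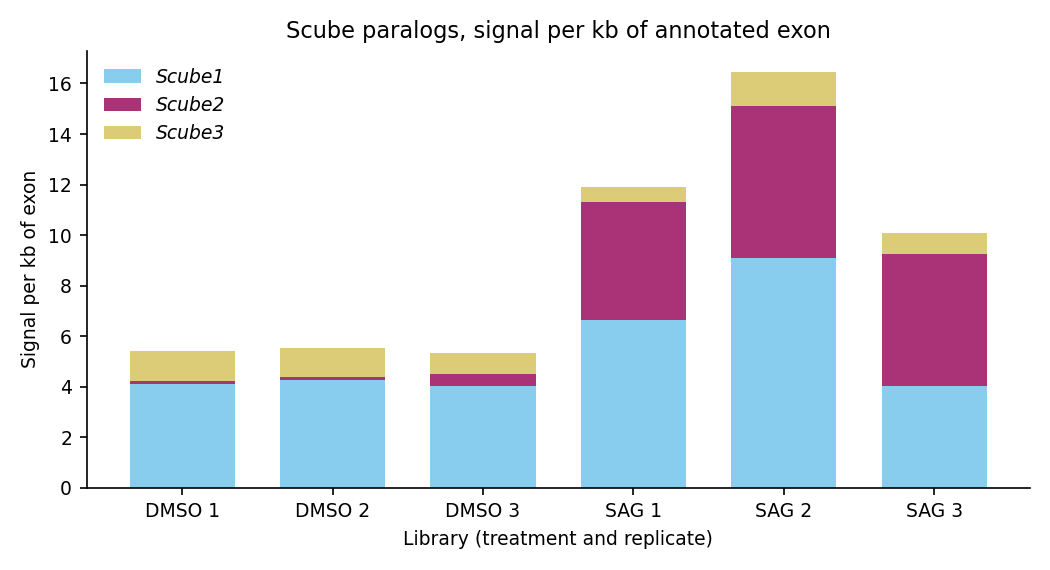
Signal per kb of annotated exon (y axis) of Scube1, Scube2 and Scube3, stacked for each of the 6 libraries (x axis). The sum is 5.32 to 5.53 in DMSO and 10.1 to 16.47 with SAG, and the Scube2 part is the one that sets SAG apart from DMSO in every library.

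Disp1 frees the ligand from the membrane of the cell that makes it. Its locus is chr1:183086266-183221522, minus strand, and per kb of exon it was the highest of the 5 genes in DMSO, at 12.6 ± 0.175. Its signal was 65.0, 65.5 and 66.8 in DMSO and 43.6, 55.8 and 27.6 in SAG replicates 1 to 3. All SAG libraries were below all DMSO libraries, and SAG replicate 3 was the lowest. The means were 65.7 ± 0.916 and 42.4 ± 14.1, 1.55-fold lower with SAG (log2 fold change -0.68, SE 0.21, 95% interval -1.15 to -0.20; limma, Benjamini-Hochberg adjusted p = 0.0381).

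The Disp1 call is near the threshold. It was lost without any 1 of DMSO replicates 1, 2 and 3 (limma, Benjamini-Hochberg adjusted p = 0.108, 0.105 and 0.115) and without SAG replicate 1 (0.0725). Without SAG replicate 3, where the spread is smaller, Disp1 was called at 1.32-fold lower (log2 fold change -0.41; 0.00154). In that setting 27.0% of all genes tested were called lower, against 16.6% with all libraries. With each library scaled by its total alone, which moves the median of all genes tested from -0.03 to 0.10 and the share of higher calls from 43.8% to 66.3%, Disp1 was at -0.54 and not called (0.104). It was also lost with edgeR on the recovered reads (0.0523) and called with DESeq2 (0.0269).

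Hhat, the enzyme that adds the palmitate, differed least between the groups. Its locus is chr1:192496711-192771223, minus strand. The signal was 17.0, 16.2 and 17.9 in DMSO and 14.9, 15.3 and 16.6 with SAG, so the groups overlap. The means were 17.0 ± 0.878 and 15.6 ± 0.864 (log2 fold change -0.12; limma, Benjamini-Hochberg adjusted p = 0.503). The 95% interval, from -0.41 to 0.16 on the log2 scale, overlaps that of Disp1, from -1.15 to -0.20. No test compared the difference of Hhat with that of another gene. SAG replicate 3, which stood apart for Scube1 and Disp1, lay with the other libraries here. With scaling by library total the sign was positive (0.012).

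**Figure D3:**
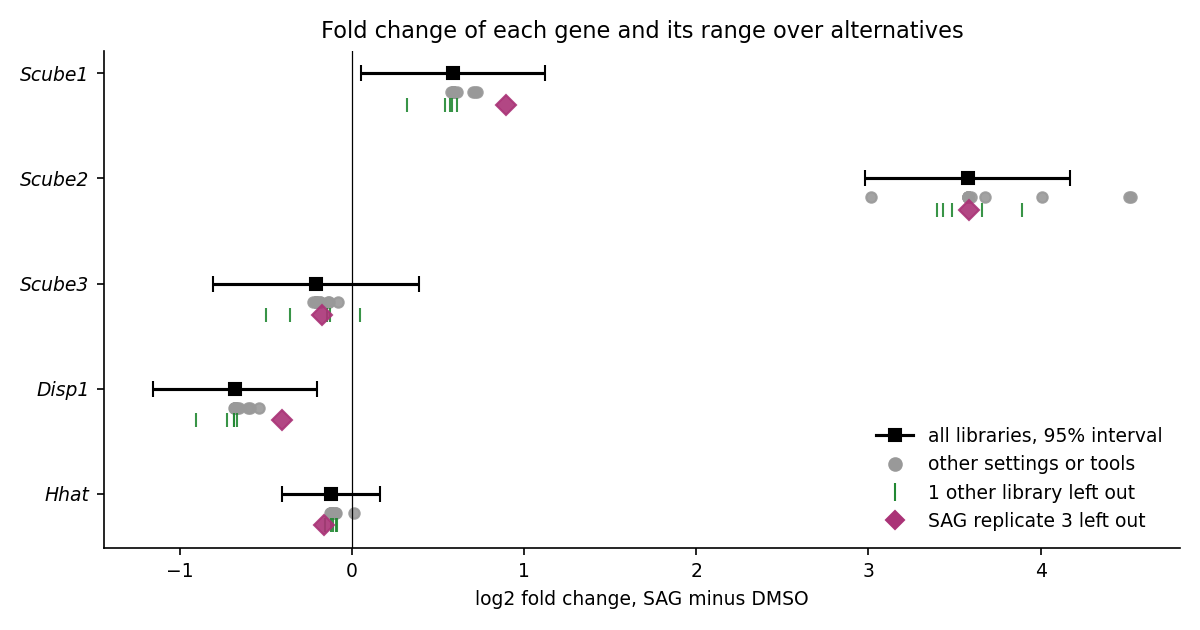
Log2 fold change (x axis, SAG minus DMSO) of each of the 5 genes: black squares with 95% intervals use all libraries, grey dots other settings or tools, green ticks 1 library left out and purple diamonds SAG replicate 3 left out. Scube2 runs from 3.02 to 4.52 over all alternatives, Scube1 from 0.32 to 0.90 and Disp1 from -0.90 to -0.41, while Scube3 and Hhat cross 0.

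Across the 5 genes the order of levels per kb in DMSO was Disp1, Scube1, Hhat (1.86 ± 0.0960), Scube3 and Scube2, with no overlap between neighbours. With SAG it was Disp1 (8.11 ± 2.71), Scube1, Scube2, Hhat (1.70 ± 0.0945) and Scube3. The ranges of Disp1, Scube1 and Scube2 overlap there, although Disp1 was above Scube1 per kb of exon in each of the 3 SAG libraries. That order also depends on the length used. With no division Scube1 was above Disp1 in each of them, at 65.4, 89.3 and 39.7 against 43.6, 55.8 and 27.6. Scube2 thus stood last in DMSO, and with SAG only Disp1 and Scube1 had a higher mean per kb.

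The ligands that these genes would serve were scarce. Dhh, the ligand of the testis, had a signal of 3.77, 3.14 and 2.48 in DMSO and 1.98, 2.65 and 3.85 with SAG, overlapping groups (limma, Benjamini-Hochberg adjusted p = 0.718). Shh had 0 reads in 5 libraries and 7 in SAG replicate 3, and Ihh had 0 to 6 reads in each library. The Sertoli marker list, which includes Dhh, summed to 34.3 to 40.6 in DMSO and 32.5 to 34.4 with SAG, most of it Sox9, and none of its 4 tested genes was called; Amh had at most 12 reads.

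Of 48 other Hedgehog pathway genes listed by role, 40 were tested: 10 rose and 4 fell, against 12.9% and 16.6% of all genes tested. The list's median log2 fold change was 0.17, beside -0.03 over all genes tested. Without SAG replicate 3 the counts were 17 and 9 of 40, against 19.7% and 27.0% of all genes tested in that setting. Among 2 tested genes of ligand processing, Adam10, a membrane protease that sheds surface proteins, was 1.83-fold lower (228, 229 and 221 in DMSO; 134, 130 and 106 with SAG) and its relative Adam17 was not called. The Disp1 relatives Disp2 and Disp3 (Ptchd2 in the table) and the Hhat relative Hhatl were under the filter, with at most 22 reads in any library.

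On the receiving side, 5 of 10 tested genes rose and 2 fell, against 12.9% and 16.6% of all genes tested. The receptor gene Ptch1 rose 2.90-fold, the co-receptor gene Gas1 6.52-fold, and Hhip, a decoy that binds ligand, 4.25-fold. Hhip had 2, 15 and 7 reads in DMSO, and its fold was 3.05 without DMSO replicate 1 and 6.94 without DMSO replicate 2. The glypican genes Gpc3 and Gpc4, whose products bind ligand at the cell surface, moved apart, Gpc3 2.91-fold higher and Gpc4 1.95-fold lower. Lrp2, an endocytic receptor, was 4.21-fold lower, at 2.53, 3.65 and 6.26 in DMSO and 0.769, 1.80 and 0.385 with SAG (7, 17 and 3 reads). Without SAG replicate 2 it was 7.18-fold lower, and without DMSO replicate 3 it was 3.14-fold lower. The co-receptor gene Cdon was not called (log2 fold change -0.09). Boc, another co-receptor gene, had 93.6, 92.3 and 90.6 in DMSO and 123, 146 and 94.8 with SAG, so that SAG replicate 3 lay close to DMSO, and it was not called with all libraries (0.37; limma, Benjamini-Hochberg adjusted p = 0.0843). It was called without SAG replicate 3 (0.54; 7.19e-06), with scaling by library total (0.51; 0.0390) and with DESeq2 (0.44; 0.0304).

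Among transducers and restraints 4 of 23 rose and 1 fell, and among transcription factors 1 of 4 rose. Of all genes tested 12.9% were called higher and 16.6% lower. Of the transducers and restraints 21.7% were called in either direction, below the 29.6% of all genes tested. Gli1, the transcription factor that reports an active pathway, was 58.6-fold higher, with 32.6, 46.3 and 30.8 in SAG replicates 1 to 3 and at most 0.846 in DMSO. Ulk3, a kinase that acts on Gli proteins, rose 2.08-fold and Arrb1, a beta-arrestin, 1.72-fold. Kif7, a motor of the primary cilium, rose 1.33-fold and Smo 1.25-fold, and Cul3, a ubiquitin ligase scaffold, was 1.46-fold lower. For 10 of the 14 called genes the call held with each library left out in turn. Smo was lost with any 1 library but SAG replicate 3 left out, and Kif7 without any 1 DMSO library or SAG replicate 2. Hhip was lost without DMSO replicates 1 or 3 and fell under the filter without any 1 SAG library. The last was Lrp2, lost without DMSO replicate 3 (limma, Benjamini-Hochberg adjusted p = 0.0693).

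**Figure D4:**
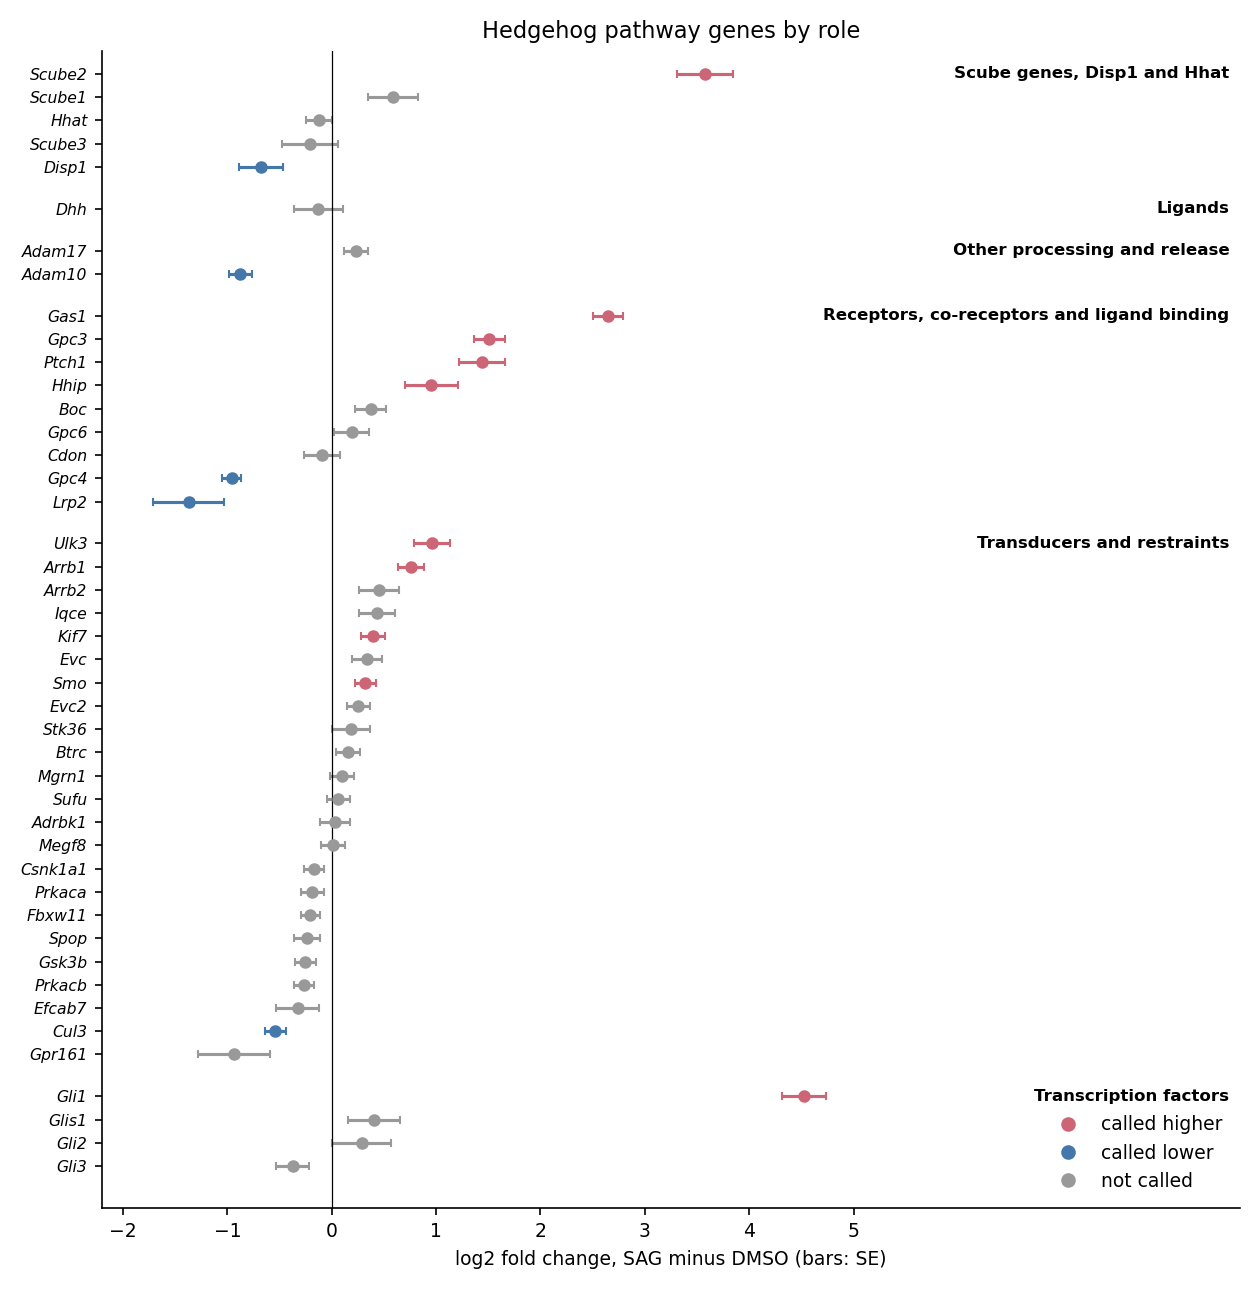
Log2 fold change (x axis, SAG minus DMSO, bars are SE) of the 5 ligand release genes and of the tested Hedgehog pathway genes (1 not shown), grouped by role; red is called higher, blue called lower and grey not called. Gli1 at 4.52 and Scube2 at 3.58 lie farthest to the right, and Gas1 follows at 2.65.

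Protein families of these genes were described by the same counts, to be read against the 12.9% of all genes tested that were called higher and the 16.6% called lower. Of 6 tested sterol-sensing-domain genes other than Disp1, 2 rose, among them Ptch1, while Npc1 (a cholesterol exporter of the lysosome) fell 1.52-fold and Ptchd4 1.68-fold. The Ptchd4 call was lost without any 1 of DMSO replicates 1, 2 and 3 and SAG replicate 2 (limma, Benjamini-Hochberg adjusted p = 0.0869, 0.111, 0.0520 and 0.0641). Of 7 tested membrane-bound O-acyltransferase genes other than Hhat, the family of Hhat, only Mboat2 was called, 1.38-fold lower, a smaller share than the 29.6% of all genes tested. That call was lost without any 1 DMSO library and without SAG replicate 2 (limma, Benjamini-Hochberg adjusted p from 0.0743 to 0.131), and Porcn, which acylates Wnt ligands, was not called.

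Scube proteins are also known to bind receptors of other signals. Of 7 such receptor genes, all tested, Bmpr2 (1.88-fold), Tgfbr1 (1.65-fold) and Acvr1 (1.55-fold) were lower with SAG and Tgfbr2 was 1.46-fold higher, beside 16.6% of all genes tested called lower and 12.9% higher. Tgfbr2 was just outside the threshold without DMSO replicate 2 (limma, Benjamini-Hochberg adjusted p = 0.0505). Kdr, the VEGF receptor that Scube2 is known to bind, was at 2.71 ± 0.267 and 3.01 ± 0.182 and was not called.

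Reads from genes beside these could add to a value, so neighbours were looked at. The protein-coding genes on either side of Scube2 are Nrip3, under the filter at 0.866 ± 0.0512 in DMSO and 0.559 ± 0.178 with SAG, and Dennd5a, at 237 ± 9.87 and 192 ± 32.3 and not called with all libraries. Without SAG replicate 3 Dennd5a was just called lower (log2 fold change -0.17; limma, Benjamini-Hochberg adjusted p = 0.0497). Both neighbours had a lower mean with SAG, Nrip3 on only 3 to 20 reads per library. Beside Scube1, Ttll12 was called lower (log2 fold change -0.59; limma, Benjamini-Hochberg adjusted p = 0.00486) and Mpped1 was near 0. The neighbours of Disp1 (Tlr5 and Brox), of Scube3 (Tcp11 and Zfp523) and of Hhat (Rcor3 and Sertad4) were not called or were under the filter. Kcnh1, on the opposite strand, overlaps Hhat and was at 0.459 ± 0.189 and 0.270 ± 0.234. BC085271, a pseudogene on the strand of Disp1, overlaps Disp1 and has no row of its own. The library kit keeps strand, but how the counting used it is not given in the sources used here. Kcnh1 had at most 12 reads in any library, and Hhat 129 to 411. Whether reads from a neighbour or an overlapping gene added to the value of another gene was not tested. Of the 50-base windows of Hhat transcripts 2.38% occur in transcripts of other genes, and of those of Scube3 1.67%, from a divergent non-coding RNA at its start, while those of Scube1, Scube2 and Disp1 had none.

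The profiles most like that of Scube2 among 11870 genes were led by those of Fam180a, Dpt (dermatopontin, a matrix protein) and Selenbp1, by the Euclidean distance of centred log2(signal + 1) values over 6 libraries (0.69, 0.71 and 0.72). These 3 rose 24.4-fold, 20.7-fold and 14.6-fold. Dpt had 3, 18 and 25 reads in DMSO, and its fold was 14.6 without DMSO replicate 1 and 34.2 without DMSO replicate 3. For Disp1 the likest were Map1a (a microtubule protein), Asb5, Bptf (a chromatin remodeller subunit) and Ccnt1 (a cyclin of transcription elongation), at distances of 0.14, 0.15, 0.16 and 0.17. Map1a, for example, had 288, 298 and 287 in DMSO and 190, 225 and 125 with SAG. Each of these 4, like Disp1, had its lowest value in SAG replicate 3 and its highest SAG value in SAG replicate 2, an order that the choice by likeness to Disp1 over these libraries largely fixed. Map1a and Ccnt1 were called lower, each lost without any 1 DMSO library, and Asb5 and Bptf were not called. Without SAG replicate 3 Bptf was called too (limma, Benjamini-Hochberg adjusted p = 0.00279). With 6 libraries in 2 groups, likeness over all libraries mostly reflects the difference between the groups.

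**Figure D5:**
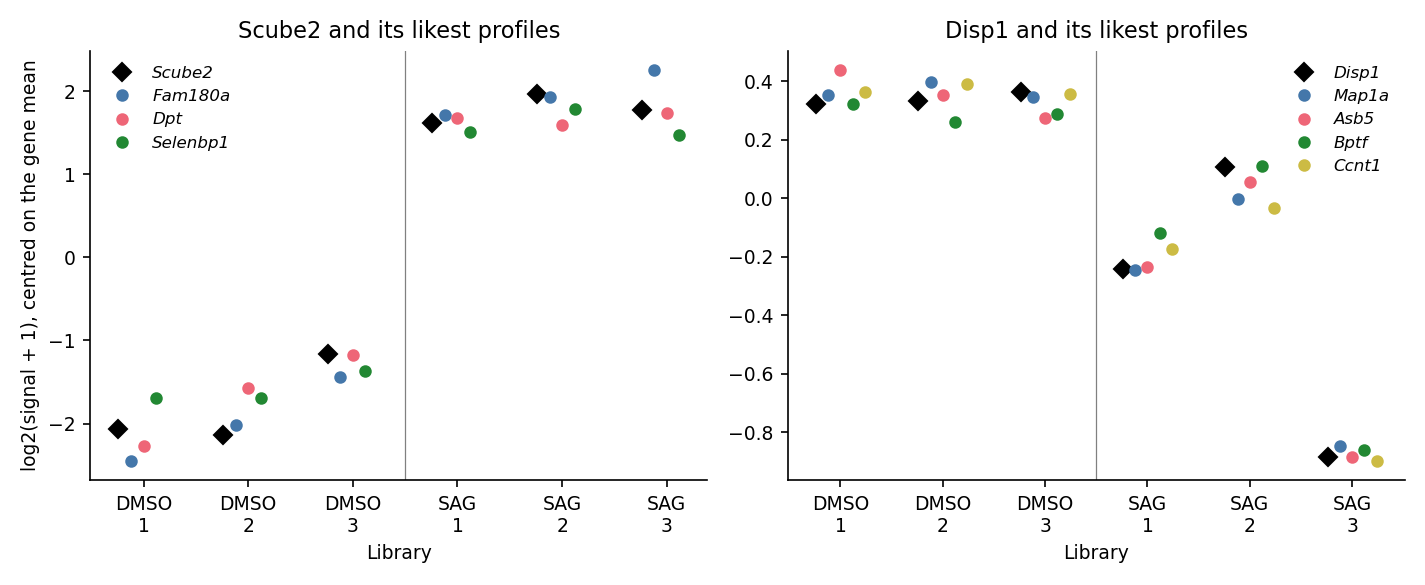
log2(signal + 1), centred on each gene's mean (y axis), in the 6 libraries (x axis) for Scube2 (left) and Disp1 (right), black diamonds, with 3 genes on the left and 4 on the right of the smallest distance as coloured dots. On the left all SAG values lie above all DMSO values, and on the right SAG replicate 3 lies lowest for all 5 genes.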

How the data were processed

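RNA-seq was done on 3 DMSO and 3 SAG samples. Per the submitters' processing notes, the authors trimmed with Trim Galore 0.6.4 and list featureCounts 2.0.0, STAR and edgeR (version given as 2.2.1) for GRCm38 (mm10). Annotation, strand setting and filters are not known from these sources. The values are a scaled signal per gene in a single deposited table. In each column 100% of the values are whole multiples of 1 step (tolerance 0.01), which gave whole reads, and the column sums lie close to those of CPM with TMM scaling computed from the reads. Columns were matched to samples by treatment and number. The 92 spike-in rows (at most 0.0157% of reads) were left out. Older symbols were used for Disp3 and Grk2.

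Testing covered genes whose mean signal reached 1, as log2(signal + 1) with limma 3.58.1 (eBayes with trend, group as the only term) in R 4.3.3 with a call where the Benjamini-Hochberg adjusted p was below 0.05; folds are ratios of mean signals. The step was tested on simulated data. Levels per kb use the union of GENCODE M21 exons. Whether replicates came from separate cultures or animals is not stated, so the p-values cover the spread among these samples alone, and that spread may be technical. Whether shared replicate numbers pair the libraries is not stated, and the main fit did not pair them. Named were the 5 genes, called genes of the Hedgehog list and the listed families, the ligands, the nearest protein-coding neighbours and the 4 likest profiles of each called gene (predicted genes aside); uncalled genes given as contrasts were chosen after their values were seen. Alternatives, those for genes other than the 5 added after the data were seen, were other pseudocounts, filters, scalings and variance models, a replicate block, edgeR 4.0.16 and DESeq2 1.42.0 on the reads, and each library left out. Results for some genes in these lists are not reported here. The members, lists and tests were chosen with earlier results of these data known.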

Additional observations from a re-analysis of the deposited data

Results flagged for a closer look

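The rows for synthetic spike-in RNAs, which no comparison used, held 111, 54 and 1205 reads in SAG replicates 1, 2 and 3 and 0 in each DMSO library. They stand out because reads appear there above the level of the DMSO samples. SAG replicate 3, the only library whose omission gave Scube1 a call in limma, has the most. Total reads also split by group, at 18486396 to 25491259 in DMSO and 7694479 to 8804335 with SAG. A difference in library preparation or sequencing between the groups therefore cannot be told apart from an effect of SAG.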

How the results depend on the processing

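Scube2 kept its direction and its call in all 17 alternatives (log2 fold change 3.02 to 4.52). Disp1 kept its direction in all 17 (-0.90 to -0.41) and lost its call in 8. These were no filter on low values (log2 fold change -0.68), scaling by library total (-0.54), limma without trend (-0.68) and edgeR on the recovered reads (-0.60). The others were 4 of 6 settings with 1 library left out, at -0.73 to -0.67. Without SAG replicate 2 (-0.90) or SAG replicate 3 (-0.41) the call held. Scube1 gained a call in 4: with edgeR (0.71) and DESeq2 (0.71) on the recovered reads, with the replicate block (0.59; adjusted p = 0.0324 in limma) and when SAG replicate 3 was left out (left-out range 0.32 to 0.90). The sign of Scube3 turned without SAG replicate 1 (left-out range -0.50 to 0.045), and that of Hhat with scaling by library total (0.012). Of the other named genes, Dhh turned without SAG replicate 1 (left-out range -0.31 to 0.038), and Cdon when scaled by library total (0.044) or when SAG replicate 3 was left out (left-out range -0.22 to 0.11). The rise in the share of Scube2 was 22.2 points with no division by length and 31.3 with the longest transcript. Calls over all genes were 1625 higher and 2084 lower, 2477 and 1259 with scaling by library total, 794 and 1043 at a threshold of 0.01, and 901 to 2463 and 1086 to 3373 with 1 library left out. The Hedgehog list gave 7 to 17 higher and 3 to 9 lower with 1 library left out. Same-numbered libraries did not deviate together over the genes tested (correlations of -0.02, 0.03 and 0.00 for replicates 1, 2 and 3). With so few libraries this cannot exclude pairing, which the labels do not state. The replicate block gave 1549 higher and 1976 lower genes. With it Smo (adjusted p = 0.0613 in limma), Kif7 (0.0647) and Mboat2 (0.0811) were no longer called and Bptf was (0.0247). Smo was also lost in limma without trend (0.0817). SAG libraries have fewer reads, and Scube2 in DMSO, with 11 to 35 reads, is the value with the fewest reads among the 5 genes.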
